A study of Homo sapiens with 6 samples.

Results

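The genes described here encode the enzymes and transporters of central glucose metabolism: glycolysis, lactate dehydrogenase, the pyruvate dehydrogenase complex, the tricarboxylic acid (TCA) cycle and the pentose phosphate pathway. They were chosen by symbol, and all 49 listed genes were found among the 20348 genes of the table. RNA was sequenced from MV4-11, a human acute myeloid leukemia (AML) cell line, in 3 Control samples that received no drug and in 3 samples treated with 1 μM WNK463, an inhibitor of the WNK kinases, for 48 h. All 6 samples are of this 1 cell line, and nothing states that they were separate cultures, so the p-values measure the spread between these samples, which may be technical. The labels give no genotype, age or further agent for either group.

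Glycolysis splits glucose into pyruvate in the cytosol and yields ATP and NADH. Pyruvate is then reduced to lactate by lactate dehydrogenase, which returns the NAD+ that glycolysis needs, or enters mitochondria, where pyruvate dehydrogenase turns it into acetyl-CoA for the TCA cycle. The pentose phosphate pathway branches off at glucose 6-phosphate and supplies NADPH and ribose for nucleotides, and proliferating blast cells are known for using all these routes.

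The libraries held 14915745 to 17411780 counts, and the 49 genes together held 2.10% to 2.29% of them in Control and 1.63% to 1.68% in WNK463. Levels are given as CPM, counts per 1000000 after scaling with edgeR's TMM factors, which lay between 0.944 and 0.951 in Control and between 1.05 and 1.06 in WNK463. Scaling by total counts alone moved the median of all tested genes from 0.02 to 0.17 on the log2 scale, so the log2 fold changes below would lie about 0.15 higher with it. Of 11 markers of myeloid leukemia and monocytes, 10 were tested, of which 4 were higher (40.0%), 4 lower (40.0%) and 2 not called. These shares are near the 35.5% and 35.3% of all tested genes. The summed level of the 11 markers was 2230.4 to 2350.4 CPM in Control and 1257.8 to 1284.1 CPM in WNK463. *LYZ* alone went from 1355 to 291 CPM (log2 fold change −2.22), whereas *ITGAM* was higher (log2 fold change 1.25). *SPI1*, *CD33* and *FLT3* were detected in every sample, and *CD14* had 10 counts at most. Markers of other cell types were at or near 0: *CD3D*, *MS4A1*, *HBB*, *EPCAM* and *COL1A2* had 0 counts in every sample, and of 10 such markers only *KRT18* passed the filter on low counts, with 98 to 171 counts per sample. Their summed level was 10.1 to 10.5 CPM in Control and 6.7 to 7.7 CPM in WNK463. The part of the changes in single myeloid markers in the results below was not tested. In bulk RNA, fewer cells of a type and less RNA per cell cannot be told apart.

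To compare the pathway between groups, each gene was tested across the whole table with edgeR's quasi-likelihood test and called at a Benjamini-Hochberg adjusted p below 0.05. WNK463 changed much of the transcriptome: 70.8% of the 11973 tested genes were called, 35.5% higher and 35.3% lower. All 49 genes of glucose metabolism passed the filter on low counts. Of these, 30 were lower (61.2%), 9 were higher (18.4%) and 10 were not called. Their median log2 fold change was −0.29, against 0.02 over all tested genes, and ran from −1.34 (*ALDOC*) to 0.73 (*PFKM*). The changes were mostly smaller than 2-fold: 4 members (*ALDOC*, *LDHA*, *HK3* and *IDH2*) were lower by at least 2-fold and 0 were higher by as much, where 5.55% of all tested genes were lower and 9.62% higher by that measure. With total counts, 25 members were called lower and 13 higher, so that lower calls made up 65.8% of the calls instead of 76.9% (64.5% with limma on log2(TPM + 1)). Over all tested genes, the share of higher calls went from 50.2% to 63.9% with total counts. For 32 members every WNK463 sample lay below every Control sample, and for 7 every WNK463 sample lay above, where 36.4% and 37.1% of all tested genes were separated in these directions. TPM, the deposited length-corrected share of each transcript, was summed over the members, and went from 2.56% ± 0.110 of all transcripts in Control to 1.96% ± 0.0331 in WNK463, as mean ± SD of 3 samples.

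**Figure D1:**
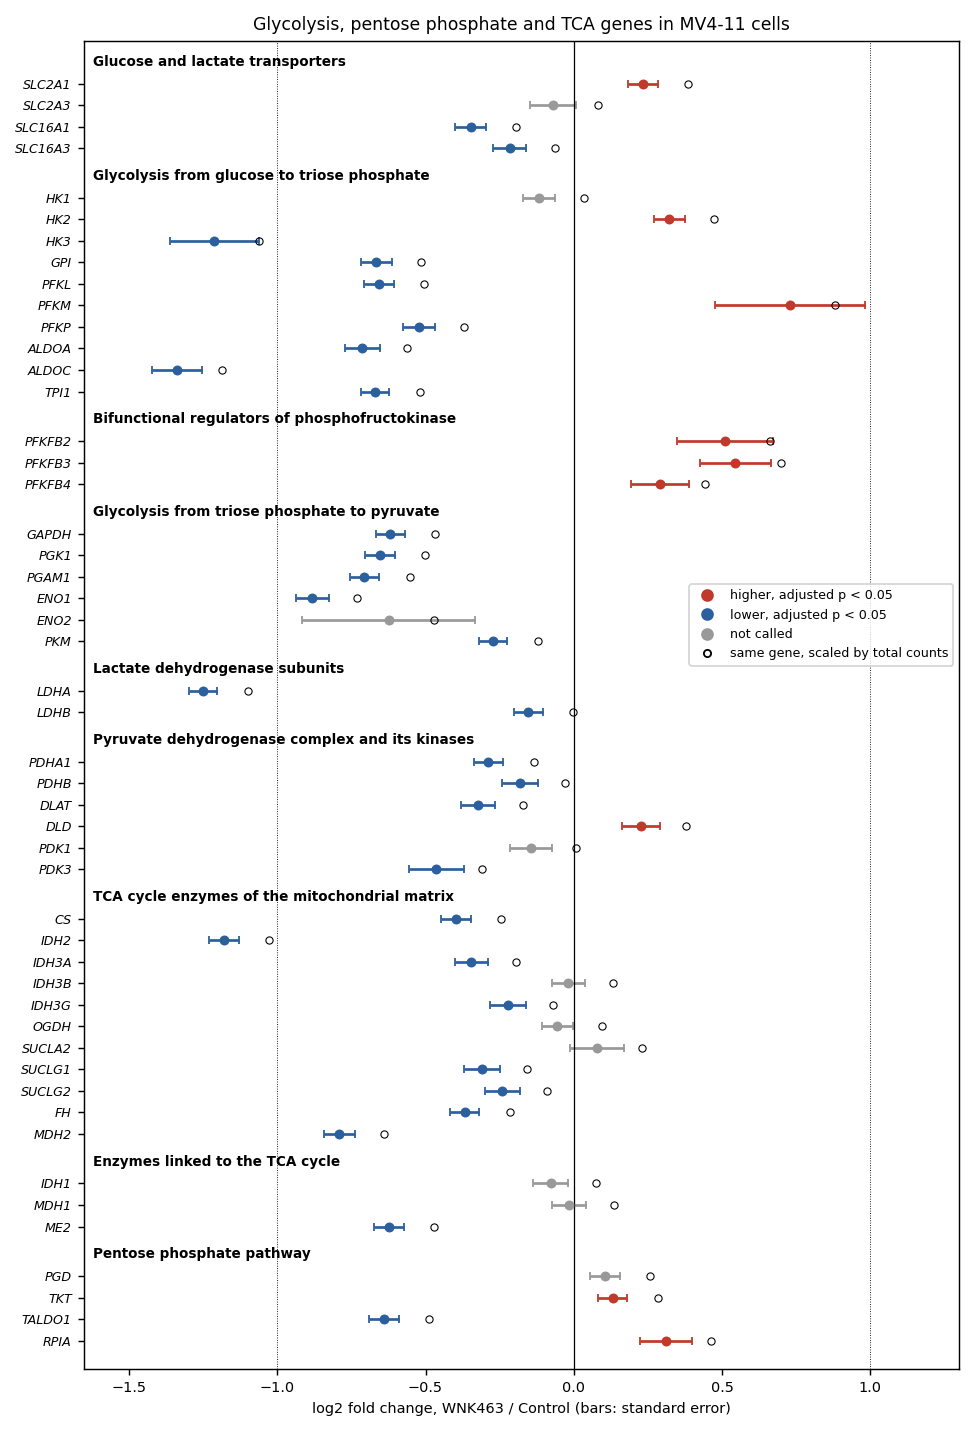
Each of the 49 genes is drawn at its log2 fold change (x axis, WNK463 over Control) by role group, with filled points and standard errors from edgeR and open circles for scaling by total counts. Points for most glycolytic and TCA enzymes lie left of 0, *LDHA*, *ALDOC*, *HK3* and *IDH2* lie beyond −1, and the 3 *PFKFB* genes lie right of 0.

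The promoters of 4 members are shown because many glycolytic genes are textbook targets of hypoxia-inducible factor (HIF) and of MYC, whose binding motifs are short and can be read off directly. The letters ACGTG are a form of the core of the HIF site, which is RCGTG, where R is A or G. The form GCGTG was neither searched nor marked. CACGTG is the E-box bound by MYC and related factors. Every E-box contains ACGTG, so the motifs overlap. Sequences are from RefSeq on GRCh38.p14, printed in lower case on the strand of the gene, with each run of ACGTG or its reverse complement CACGT (or the E-box holding both) in capitals. Only the longest part of the 250 bases before a start site that lies outside every annotated exon is printed. *LDHA* is on the plus strand at chr11:18394313-18394387 and has 1 run, *PGK1* on the plus strand at chrX:78103998-78104173 and has 2, *HK2* on the plus strand at chr2:74834920-74835169 and has 2, and *HK3*, on the minus strand at chr5:176899347-176899596, has 0.
LDHA: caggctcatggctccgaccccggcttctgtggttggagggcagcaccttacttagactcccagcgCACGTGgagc
PGK1: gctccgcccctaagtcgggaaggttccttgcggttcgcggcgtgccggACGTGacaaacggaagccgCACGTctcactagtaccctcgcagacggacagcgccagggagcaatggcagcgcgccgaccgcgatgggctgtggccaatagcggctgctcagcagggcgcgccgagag
HK2: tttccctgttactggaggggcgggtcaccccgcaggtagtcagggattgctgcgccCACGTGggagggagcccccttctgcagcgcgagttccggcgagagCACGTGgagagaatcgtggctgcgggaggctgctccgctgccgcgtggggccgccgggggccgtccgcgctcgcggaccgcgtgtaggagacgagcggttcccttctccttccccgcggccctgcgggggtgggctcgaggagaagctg
HK3: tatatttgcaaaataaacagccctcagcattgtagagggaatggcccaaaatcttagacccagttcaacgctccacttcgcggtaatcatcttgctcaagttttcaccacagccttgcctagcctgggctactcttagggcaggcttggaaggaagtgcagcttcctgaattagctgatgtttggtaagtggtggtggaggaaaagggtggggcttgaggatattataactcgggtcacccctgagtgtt
*LDHA* and *PGK1* were lower with WNK463 and hold ACGTG, *HK2* was higher and holds it, and *HK3* was lower without it. A second *LDHA* start site has no ACGTG in its own stretch outside exons. RefSeq windows matched 45 of the 49 members, with 74 windows (*OGDH*, *PFKFB2*, *SLC16A1* and *SLC2A3* had none). On either strand, ACGTG was found in 31.1% of the members' windows, against 22.4% of the windows of all tested genes and 18.5% of all windows. The share was 37.5% for members called lower (15 of 40 windows) and 23.5% for the other members (8 of 34 windows). Counted by gene, 13 of 29 members called lower and 7 of 16 other members had at least 1 window with the motif, so the difference between windows is not seen between genes. CACGTG was found in 9.46% of the members' windows, 8.36% of those of tested genes and 6.34% of all. These matches describe letters in a window, and binding was not measured.

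The 4 transporters did not move together: 1 was higher, 2 were lower and 1 was not called, with a median log2 fold change of −0.14. *SLC2A1*, the glucose transporter GLUT1, was at 204, 192 and 194 CPM in the 3 Control samples and at 235, 218 and 240 CPM in the 3 WNK463 samples. Every WNK463 sample was above every Control sample, with a log2 fold change of 0.23 ± 0.05 (SE, edgeR adjusted p = 4.6e-04). *SLC16A1*, the lactate and pyruvate carrier MCT1, was at 106, 111 and 117 CPM in Control and at 87.3, 86.8 and 88.3 CPM in WNK463. It was lower in all 3 treated samples (log2 fold change −0.35 ± 0.05, edgeR adjusted p = 1.5e-05). *SLC16A3*, the lactate exporter MCT4, was also lower, by 0.22 ± 0.06 on the log2 scale (edgeR adjusted p = 0.0022), but its fold change with total counts was −0.06 and not called. *SLC2A3*, the glucose transporter GLUT3, was not called (log2 fold change −0.07, 95% interval, here and below not adjusted for the number of genes, −0.23 to 0.09). Its level is uncertain insofar as reads could be split with its near-identical paralog *SLC2A14*. That paralog had 17 counts at most in a sample, and the splitting of reads was not measured.

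Of 16 glycolytic enzymes from hexokinase to pyruvate kinase, 12 were lower (75.0%), 2 higher (12.5%) and 2 not called. Over all tested genes, 35.3% were lower and 35.5% higher. The 16 enzymes had a median log2 fold change of −0.66 (−0.50 with total counts). Their summed TPM fell from 1.81% ± 0.102 to 1.32% ± 0.0332 of all transcripts. Of these, *GPI* (−0.67), *PFKL* (−0.66), *ALDOA* (−0.71), *TPI1* (−0.67), *GAPDH* (−0.62), *PGK1* (−0.65) and *PGAM1* (−0.71) all lay between −0.71 and −0.62 on the log2 scale, with standard errors of 0.05 to 0.06.

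The early steps trap glucose and split it. Hexokinases phosphorylate glucose, and the 3 isozymes went different ways. *HK3* was at 16.2, 13.1 and 12.3 CPM in Control and at 6.52, 4.77 and 6.70 CPM in WNK463. The groups were well apart, with WNK463 at 43.2% of Control (log2 fold change −1.21 ± 0.15, edgeR adjusted p = 1.0e-06). *HK2*, the inducible isozyme, rose from 144 ± 6.07 to 179 ± 6.63 CPM (log2 fold change 0.32 ± 0.05, edgeR adjusted p = 2.1e-05). *HK1* was not called (−0.12, 95% interval −0.23 to −0.00), but was called lower with no filter on low counts and without Control replicate 3. As a share of the TPM of the 3 hexokinases, *HK2* went from 36.5% ± 1.31 to 45.1% ± 1.20, *HK3* from 6.40% to 2.74%, and *HK1* from 57.1% to 52.1%. The shares of each isozyme did not overlap between groups.

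Phosphofructokinase commits sugar to glycolysis. *PFKL*, the main isozyme, fell from 418 ± 22.4 to 265 ± 11.5 CPM, and *PFKP* from 128 ± 5.79 to 89.5 ± 3.81 CPM (log2 fold change −0.52). *PFKM* was the member with the largest rise (0.73 ± 0.25, edgeR adjusted p = 0.015), but from 2.04 to only 3.38 CPM, and it was not called without Control replicate 3 or without WNK463 replicate 3. It supplied on average 0.969% of the phosphofructokinase TPM in WNK463, with 1.14% in WNK463 replicate 1.

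Aldolase splits fructose bisphosphate. *ALDOC* was the member with the largest fall, at 43.7, 39.3 and 42.6 CPM in Control and 17.8, 16.7 and 15.1 CPM in WNK463. All treated samples were far below all Control samples, at 39.6% of the Control level (log2 fold change −1.34 ± 0.08, edgeR adjusted p = 1.3e-10). *ALDOC* was the minor isozyme, with 2.01% of the aldolase TPM in Control and 1.36% in WNK463. *TPI1*, which interconverts the triose phosphates, was at 964, 869 and 887 CPM in Control and 560, 566 and 584 CPM in WNK463. Its treated samples lay within a narrow range well below Control (log2 fold change −0.67 ± 0.05, edgeR adjusted p = 8.3e-10).

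The later steps harvest ATP and NADH. Of 6 members, 5 were lower (83.3%, against 35.3% of all tested genes). *ENO2*, at 1.71 to 2.66 CPM on average, was not called (−0.62, 95% interval −1.24 to −0.01). It was called lower in 3 of 14 alternatives, among them the fits without Control replicate 1 or without WNK463 replicate 2. *PGAM1*, a phosphoglycerate mutase, was at 791, 716 and 722 CPM in Control and 456, 438 and 472 CPM in WNK463. Its groups did not overlap, with a log2 fold change of −0.71 ± 0.05 (edgeR adjusted p = 6.5e-10). *ENO1*, the main enolase, was at 2886, 2513 and 2499 CPM in Control and 1447, 1368 and 1471 CPM in WNK463. It fell to 54.3% of Control (log2 fold change −0.88 ± 0.05, edgeR adjusted p = 1.4e-10), the largest fall among these 6. *GAPDH*, the glycolytic dehydrogenase that is often used as a reference gene, fell from 5462 ± 327 to 3558 ± 124 CPM. *PKM*, the pyruvate kinase that closes the pathway, fell least, from 1285 ± 70.9 to 1063 ± 23.2 CPM (−0.27 ± 0.05, edgeR adjusted p = 5.1e-05, and −0.12 with total counts). Control replicate 1 was the highest of the 3 Control samples in 13 of the 16 glycolytic enzymes, all but *HK2*, *PFKM* and *ENO2*. Without it, 7 of the 10 enzymes up to *TPI1* and all 6 from *GAPDH* to *PKM* were called lower. GENCODE 29 lists 62 pseudogenes named after *GAPDH*, 13 after *PGAM1*, 6 after *LDHA* and 4 after *ENO1*. How reads of such near-identical copies were counted is not given in the sources used here, so the levels of these genes carry that uncertainty.

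The 3 bifunctional *PFKFB* enzymes make and break fructose 2,6-bisphosphate, the allosteric activator of phosphofructokinase. All 3 were higher, where *PFKL* and *PFKP* were lower. Over all tested genes, 35.5% were higher. *PFKFB3* was at 9.86, 9.67 and 9.51 CPM in Control and 14.3, 15.9 and 12.1 CPM in WNK463. Each treated sample was above each Control sample (log2 fold change 0.54 ± 0.12, edgeR adjusted p = 5.4e-04). *PFKFB2* was at 5.36, 4.46 and 4.82 CPM in Control and 7.79, 6.74 and 6.32 CPM in WNK463. Its groups were also apart (0.51 ± 0.16, edgeR adjusted p = 0.0094), but the call was lost without WNK463 replicate 1. *PFKFB4* went from 22.9 ± 3.42 to 28.0 ± 1.70 CPM (0.29 ± 0.10, edgeR adjusted p = 0.014), with overlapping groups, and the call was lost without Control replicate 3 or WNK463 replicate 1. The 3 genes kept similar shares of their summed TPM, all with overlapping groups.

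**Figure D2:**
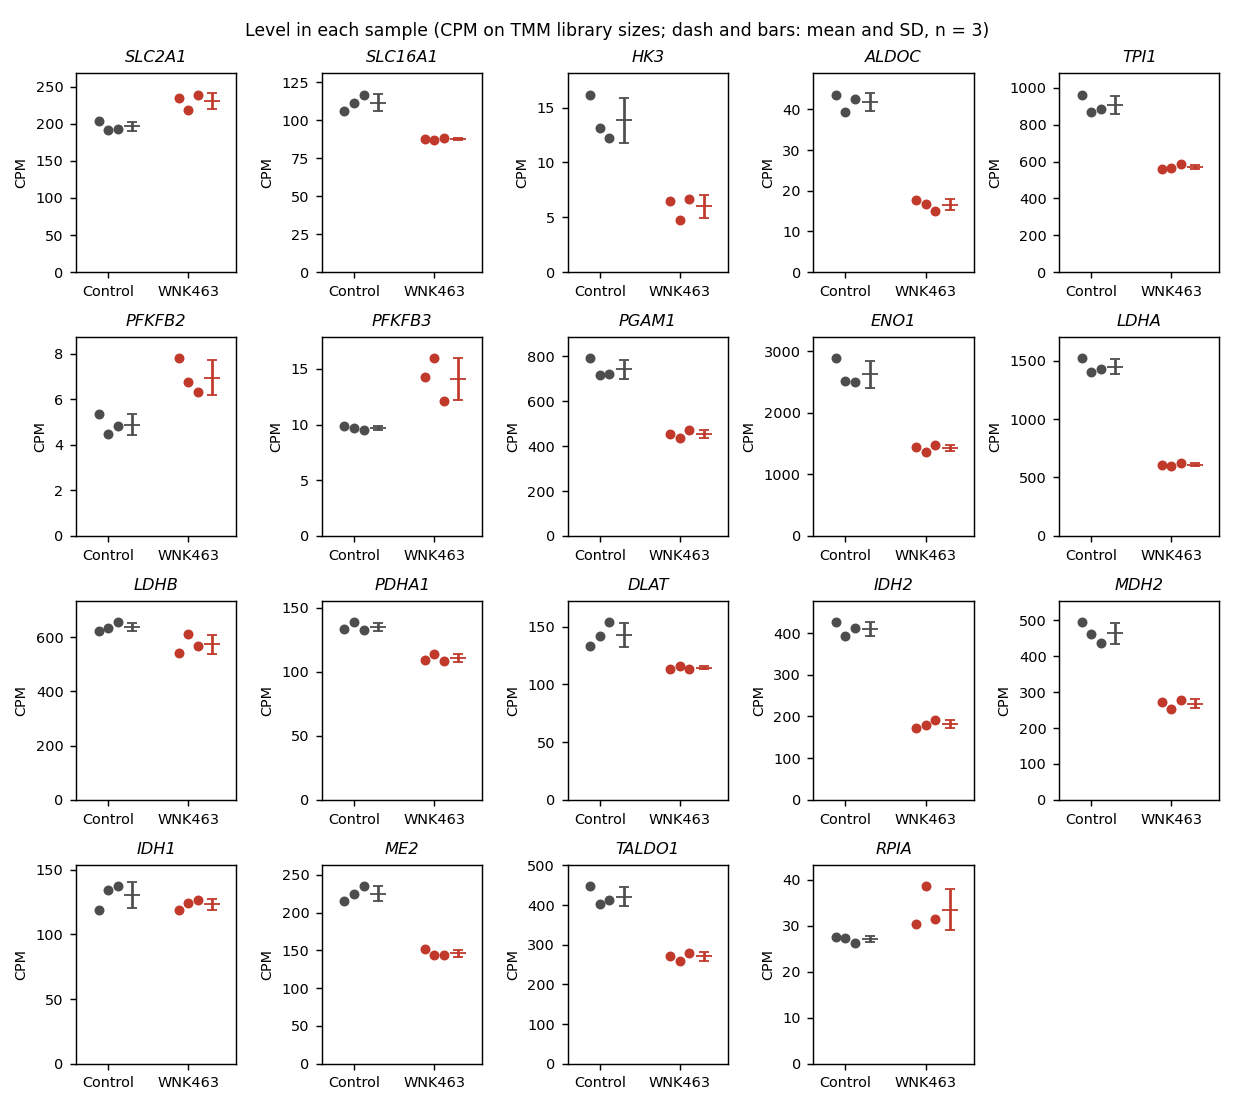
Each panel shows 1 gene in CPM from 0 (y axis), with 1 point per sample, a dash at the mean and bars of 1 SD (n = 3 per group). *LDHA*, *IDH2*, *ALDOC* and *HK3* in WNK463 lie below all Control points at 39.6% to 44.2% of the Control level, whereas the points of *IDH1* overlap.

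Lactate dehydrogenase is a tetramer of A and B subunits, and the A subunit is the one known for lactate production. *LDHA* was at 1518, 1399 and 1425 CPM in Control and at 607, 596 and 623 CPM in WNK463. The 3 treated samples were close together at 42.0% of the Control level (log2 fold change −1.25 ± 0.05, edgeR adjusted p = 1.8e-13), which placed *LDHA* at rank 56 of the 11973 tested genes by p. *LDHB* was at 623, 635 and 655 CPM in Control and at 540, 611 and 568 CPM in WNK463. Its treated samples were below all Control samples, but by little (−0.15 ± 0.05, edgeR adjusted p = 0.0097). The *LDHB* call was lost with total counts (−0.00), in TPM, and without WNK463 replicate 1. *LDHA* made up 63.9%, 61.6% and 60.5% of the lactate dehydrogenase TPM in Control and 43.4%, 40.0% and 43.7% in WNK463. The balance of the subunit transcripts thus turned, with *LDHB* going from 38.0% ± 1.69 to 57.6% ± 2.07. This share does not depend on library scaling, since both genes are read in the same sample.

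**Figure D3:**
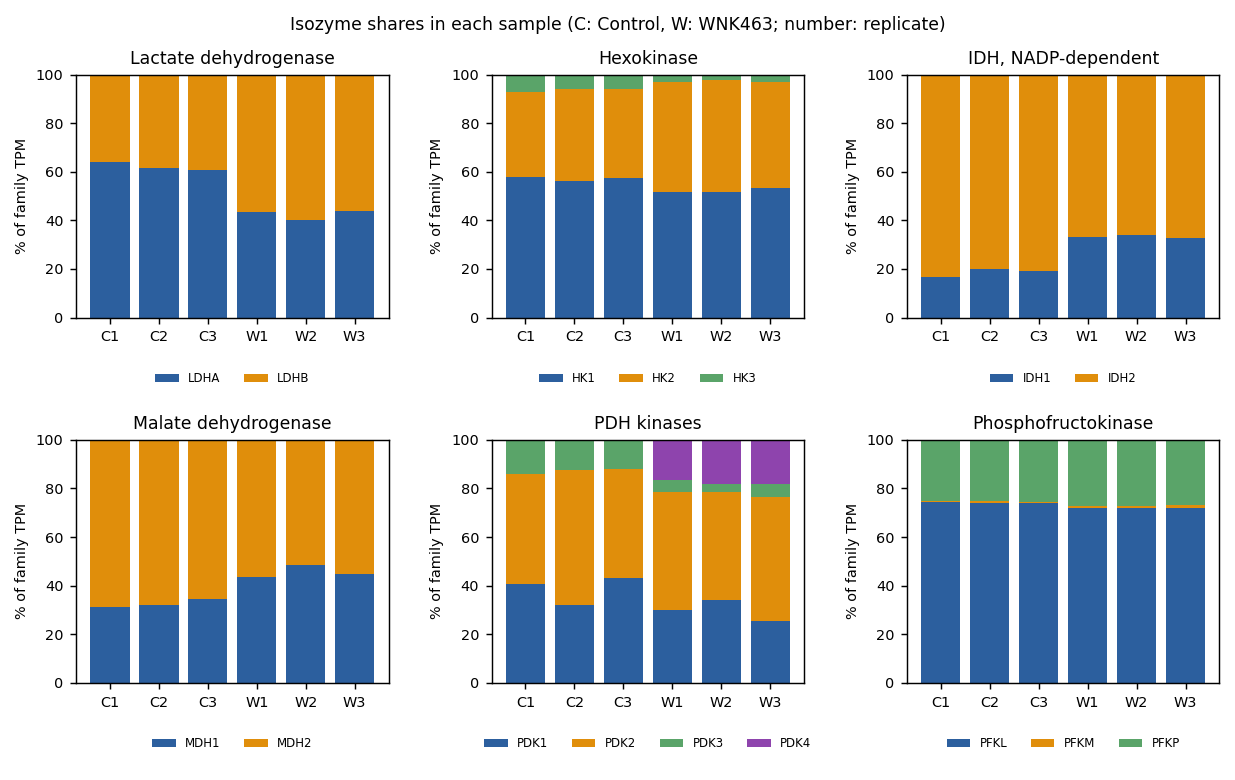
Stacked bars give the percent of the summed TPM of each enzyme family (y axis, 0 to 100) in every sample (C, Control and W, WNK463, with the replicate number). *LDHA* falls from 60.5% or more to 43.7% or less, *IDH1* and *MDH1* take larger shares in each WNK463 sample, and *PDK4* appears as a visible band only in WNK463.

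The pyruvate dehydrogenase complex is built from the E1 subunits *PDHA1* and *PDHB*, the E2 core *DLAT* and the E3 subunit *DLD*, and is shut off by the PDK kinases. Of the 6 members, 4 were lower (66.7%), 1 higher (16.7%) and 1 not called, against 35.3% lower and 35.5% higher over all tested genes. With limma on log2(TPM + 1), only 1 was lower and 1 higher, and the summed TPM of the 6 was 0.0359% in Control and 0.0368% in WNK463. *PDHA1* was at 133, 139 and 133 CPM in Control and 109, 114 and 108 CPM in WNK463. *DLAT* was at 133, 142 and 154 CPM in Control and 113, 116 and 114 CPM in WNK463. Both were lower in every treated sample, by 0.29 ± 0.05 and 0.32 ± 0.06 on the log2 scale (edgeR adjusted p = 5.8e-05 and 5.2e-05), and both calls were lost in TPM. *PDHB* was lower by 0.18 on the log2 scale (edgeR adjusted p = 0.013), a call that was lost with total counts and without WNK463 replicate 2. *DLD*, which also serves other dehydrogenase complexes, rose from 72.3 ± 5.16 to 84.7 ± 5.10 CPM (0.23 ± 0.06, edgeR adjusted p = 0.0041). Of the kinases among the members, *PDK3* fell (−0.46 ± 0.09, edgeR adjusted p = 2.7e-04, and between −0.91 and −0.31 over the alternatives) and *PDK1*, a known HIF target, was not called (−0.14, 95% interval −0.29 to 0.01).

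Genes outside the 49 that act at the same step were read from a list of 28 further pyruvate and TCA genes, of which 25 were tested. Of these, 9 were higher (36.0%) and 12 lower (48.0%), against 35.5% and 35.3% of all tested genes. *PDK4*, the kinase known for rising in fasting, changed most. It was at 0.122, 0.274 and 0.488 CPM in Control and at 18.2, 19.9 and 20.7 CPM in WNK463. Control samples were near 0, with 8 counts at most, whereas the treated samples had 301, 342 and 324 counts. The fitted log2 fold change was 6.01 ± 0.23 (edgeR adjusted p = 2.3e-13). *PDK4* supplied 0.327% of the TPM of the 4 *PDK* genes in Control and 17.6% ± 1.04 in WNK463. The largest mean share was that of *PDK2*, with 48.7% in Control and 47.9% in WNK463. *PDK2* was called higher (log2 fold change 0.38, edgeR adjusted p = 2.0e-04). The mitochondrial pyruvate carrier subunits, named after their values were seen, both rose. *MPC1* went from 40.6 ± 1.57 to 66.7 ± 0.941 CPM (0.71, edgeR adjusted p = 8.4e-09) and *MPC2* from 25.6 ± 1.10 to 43.0 ± 1.02 CPM (0.75, edgeR adjusted p = 3.5e-08). The phosphatase *PDP1*, which reverses the action of the kinases, rose too (0.67, edgeR adjusted p = 3.9e-08), while *PDP2* was lower (−0.31). *PC*, which carboxylates pyruvate to oxaloacetate, rose by 0.57 on the log2 scale.

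**Figure D4:**
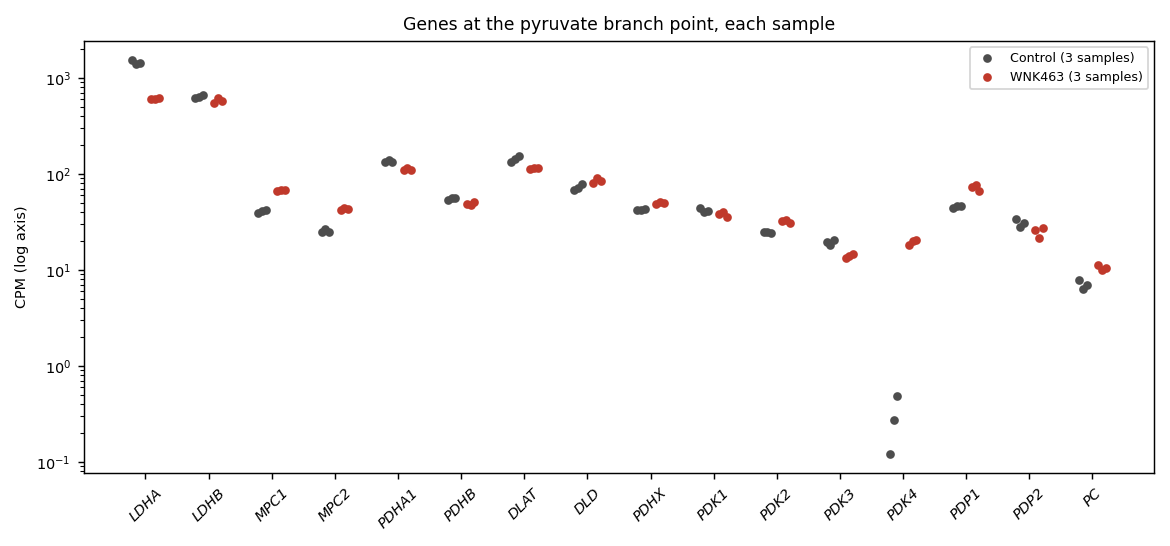
CPM on a log axis (y) are shown for 16 genes around pyruvate, with 1 point per sample and 3 samples per group. *LDHA* is lower in WNK463, *MPC1*, *MPC2* and *PDP1* are higher, and *PDK4* moves from below 0.5 CPM to about 20 CPM.

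Of the 11 TCA cycle enzymes of the mitochondrial matrix, 8 were lower (72.7%), 0 higher and 3 not called. Over all tested genes, 35.3% were lower and 35.5% higher. The median log2 fold change of the 11 enzymes was −0.31 (−0.16 with total counts). With total counts 6 were lower and 2 higher, and with limma on log2(TPM + 1) 4 were lower and 1 higher. *IDH2*, the NADP-dependent isocitrate dehydrogenase of mitochondria, was at 426, 393 and 412 CPM in Control and at 172, 180 and 192 CPM in WNK463. All treated samples were far below all Control samples, at 44.2% of the Control level (log2 fold change −1.18 ± 0.05, edgeR adjusted p = 1.3e-12, rank 135 by p). *MDH2*, which returns malate to oxaloacetate, was at 494, 461 and 436 CPM in Control and at 272, 254 and 277 CPM in WNK463. Its groups were likewise apart (−0.79 ± 0.05, edgeR adjusted p = 3.4e-10). *CS*, which brings acetyl-CoA into the cycle, was lower by 0.40 on the log2 scale and *FH*, the fumarate hydratase, by 0.37. Smaller falls were called for *IDH3A* (−0.35), *SUCLG1* (−0.31), *SUCLG2* (−0.24) and *IDH3G* (−0.22). The calls of *SUCLG2* and *IDH3G* were lost with total counts. The NAD-dependent isocitrate dehydrogenase is made of the *IDH3* subunits, and *IDH3B* was not called (−0.02, 95% interval −0.14 to 0.10), but was called higher with total counts (0.13, edgeR adjusted p = 0.040) and in TPM (0.18, limma adjusted p = 0.013). *OGDH*, the E1 subunit of oxoglutarate dehydrogenase (−0.06, −0.17 to 0.05), and *SUCLA2*, the ADP-forming succinyl-CoA ligase subunit (0.08, −0.12 to 0.27), were not called either. However, *SUCLA2* was called higher with total counts (0.23) and without Control replicate 3, and changed direction without Control replicate 1.

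The cytosolic partners of these enzymes differed from them. *IDH1*, the cytosolic isocitrate dehydrogenase, was at 119, 135 and 137 CPM in Control and 119, 124 and 127 CPM in WNK463. Its groups overlapped (−0.08, 95% interval −0.20 to 0.05, edgeR adjusted p = 0.24), but it was called lower without Control replicate 1. *MDH1*, the cytosolic malate dehydrogenase, was likewise not called (−0.02, 95% interval −0.14 to 0.10), but was called higher with total counts (0.14, edgeR adjusted p = 0.047) and in TPM (0.19, limma adjusted p = 0.018). Within each pair, the cytosolic share of TPM was higher in every WNK463 sample, for *IDH1* 33.2% ± 0.684 against 18.8% ± 1.69 and for *MDH1* 45.6% ± 2.53 against 32.7% ± 1.83. These pairs were chosen after their values were seen. *ME2*, the mitochondrial malic enzyme that makes pyruvate from malate, was at 215, 224 and 235 CPM in Control and 151, 143 and 143 CPM in WNK463. It was lower in all treated samples (−0.62 ± 0.05, edgeR adjusted p = 4.2e-09). Among related genes, *ME3*, a further malic enzyme, fell by 1.88 on the log2 scale from 1.88 to 0.506 CPM (edgeR adjusted p = 1.2e-04). The dicarboxylate carrier *SLC25A10* fell from 108 ± 6.10 to 46.3 ± 4.59 CPM (−1.22, edgeR adjusted p = 4.2e-11). All 4 succinate dehydrogenase subunits were called lower, with log2 fold changes from −0.48 (*SDHC*) to −0.14 (*SDHB*), but *SDHB* was at 0.02 with total counts.

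The 4 pentose phosphate members were 2 higher, 1 lower and 1 not called, with a median log2 fold change of 0.12, and their summed TPM was 0.184% in Control and 0.194% in WNK463. *TALDO1*, the transaldolase that links the pathway back to glycolysis, was at 448, 404 and 413 CPM in Control and 272, 259 and 280 CPM in WNK463. It fell in every treated sample (−0.64 ± 0.05, edgeR adjusted p = 3.1e-09). *RPIA*, which makes ribose 5-phosphate, was at 27.5, 27.4 and 26.3 CPM in Control and 30.4, 38.5 and 31.5 CPM in WNK463. All treated samples were higher, with WNK463 replicate 2 above the others (0.31 ± 0.09, edgeR adjusted p = 0.0047). *TKT*, the transketolase of the same non-oxidative arm, went from 845 ± 45.1 to 925 ± 33.1 CPM (0.13 ± 0.05, edgeR adjusted p = 0.022) with overlapping groups, and its call was lost when Control replicate 2, Control replicate 3, WNK463 replicate 1 or WNK463 replicate 3 was left out. *PGD*, an NADPH-yielding dehydrogenase of the oxidative arm, was not called (0.11, 95% interval −0.00 to 0.21). It was called higher in 7 of 14 alternatives, among them total counts (0.26), TPM (0.29) and the fits without Control replicate 1 or without WNK463 replicate 2.

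Of 12 other pentose phosphate genes, 10 were tested. Among these, 6 were lower (60.0%) and 2 higher (20.0%), against 35.3% and 35.5% of all tested genes. Both higher genes changed by at least 2-fold. *TIGAR*, a phosphatase that lowers fructose 2,6-bisphosphate, rose from 19.0 ± 2.15 to 39.0 ± 2.83 CPM (1.03 ± 0.09, edgeR adjusted p = 1.2e-08). *TKTL1*, a transketolase-like gene, had 7 counts in all Control samples together and 120 in WNK463, a depth-adjusted ratio of 16.4 with a 95% counting interval of 7.74 to 41.8 that covers counting error only. The ribose phosphate kinases *PRPS1* (−0.57) and *PRPS2* (−0.94) were lower.

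Of 24 further genes of glycolysis and gluconeogenesis, 10 were tested. Among these, 4 were lower (40.0%) and 2 higher (20.0%), against 35.3% and 35.5% of all tested genes. *ENO3*, the muscle enolase, was at 3.29, 2.40 and 2.26 CPM in Control and 15.9, 18.7 and 15.9 CPM in WNK463. Every treated sample was well above Control (2.66 ± 0.15, edgeR adjusted p = 5.5e-11). It still made up only 1.75% of the TPM of the 3 enolases in WNK463, against 98.2% for *ENO1*. Of 16 other sugar and monocarboxylate transporters, 8 were tested, 4 were higher and 1 lower. Over all tested genes, 35.5% were higher and 35.3% lower, and whether these 8 genes differ from that was not tested. *SLC2A13*, a myo-inositol transporter, rose from 9.78 ± 0.875 to 21.0 ± 0.826 CPM (1.10, edgeR adjusted p = 2.5e-08). *SLC2A14* was called higher (1.62 ± 0.63, edgeR adjusted p = 0.029) at 1.09 CPM or less in every sample. The call was lost with DESeq2 and without Control replicate 2, Control replicate 3 or WNK463 replicate 3, and the log2 fold change ranged from 1.01 to 2.92 with 1 sample left out.

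Since the glycolytic genes are known HIF targets, 16 HIF targets outside glycolysis were read beside them. Of the 11 tested, 5 were lower (45.5%), 4 higher (36.4%) and 2 not called, against 35.3% lower and 35.5% higher over all tested genes. *NDRG1*, a stress-induced gene, fell from 138 ± 5.21 to 58.2 ± 4.29 CPM (−1.25, edgeR adjusted p = 5.0e-12), and was the only one of them to change by 2-fold. *HIF1A* itself was lower by 0.35 on the log2 scale (edgeR adjusted p = 0.0013), *EPAS1*, which encodes HIF-2α, was higher (0.62, edgeR adjusted p = 1.5e-04), and their partner *ARNT* was not called (−0.01). Of 8 regulators of glucose metabolism, these 3 among them, 3 were higher (37.5%), 3 lower (37.5%) and 2 not called. These shares are near the 35.5% and 35.3% of all tested genes. *TXNIP*, an arrestin that restrains glucose uptake and a target of the glucose sensor MondoA (*MLXIP*), was at 406, 384 and 399 CPM in Control and 803, 796 and 822 CPM in WNK463. The groups were far apart (1.03 ± 0.04, edgeR adjusted p = 1.1e-12). Its relative *ARRDC4* rose too, from 16.0 ± 1.41 to 37.3 ± 1.64 CPM (1.23, edgeR adjusted p = 5.5e-10), while *MLXIP* was lower (−0.24, edgeR adjusted p = 8.1e-04).

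Across the 49 members, Spearman's rho between TPM level in Control and log2 fold change was −0.484. This describes genes that share the same 6 libraries. Over all 11973 tested genes, rho was −0.389. Control is also the denominator of the fold change, so part of a negative rho can arise from spread in Control alone. The same holds for falls among genes chosen by their Control level, and the size of this part was not tested. Of 751 tested genes with at least 200 TPM in Control, a level chosen after the data were seen, 72.6% were called lower, with a median log2 fold change of −0.36. Of the 17 members at that level, 15 were called lower (88.2%), with a median of −0.66. Genes abundant in Control were thus mostly lower with WNK463, whether or not they belong to glucose metabolism. The part of level in the members' fold changes was not tested.

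**Figure D5:**
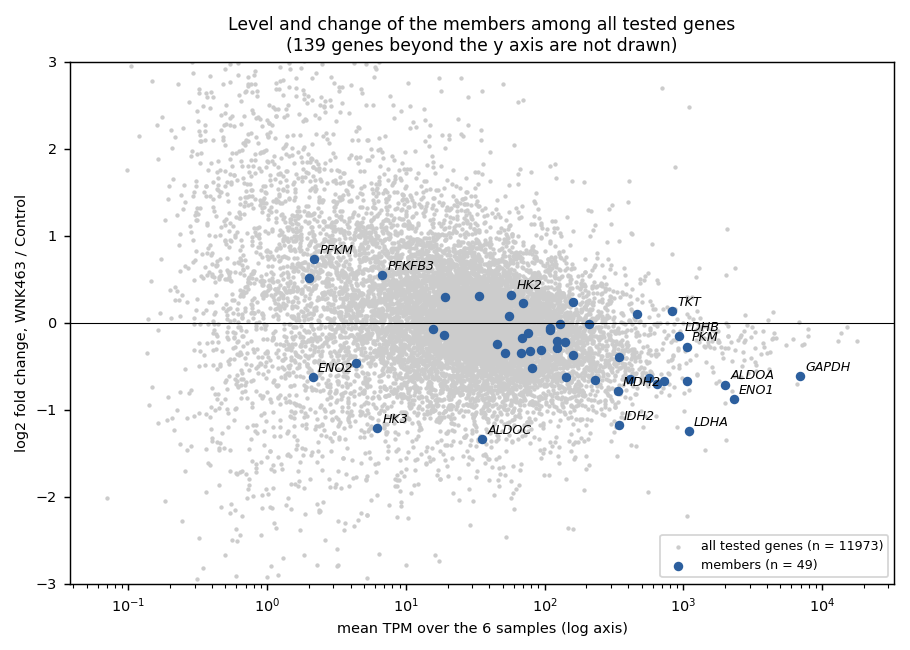
The log2 fold change (y axis, WNK463 over Control) is plotted against the mean TPM over the 6 samples (x axis, log scale) for all 11973 tested genes (gray) and the 49 members (blue), with 139 genes beyond the y axis not drawn. The abundant members *GAPDH*, *ENO1*, *ALDOA* and *LDHA* lie below 0, where most other genes of their level lie too, and *LDHA* lies lower than most of them.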

How the data were processed

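The labels give no batch or date and state bead-enriched mRNA sequencing of MV4-11 cells on GRCh38. The submitters' processing notes name fastp, Bowtie2, HISAT2, StringTie, RSEM, DESeq2 and edgeR without roles or versions. The authors deposited, per gene and sample, estimated counts as whole numbers without normalization, and TPM values that sum to 1000000 per sample. The deposited table also holds group means, fold changes and p-values of the authors' own comparison, which were not used, and 629 genes without a symbol.

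Counts of the 3 Control and 3 WNK463 samples were tested with edgeR 4.0.16 in R 4.3.3 (TMM scaling and filterByExpr at their defaults, quasi-likelihood fit with no replicate block, Benjamini-Hochberg adjustment over 11973 genes). Standard errors were derived from each log2 fold change and its F statistic. Libraries of 14915745 to 17411780 counts gave a common biological coefficient of variation of 5.21%. Isozyme shares used the deposited TPM, which correct for transcript length. The procedure was tested on simulated data in which few genes changed, equally in both directions. That test does not probe the choice of scaling, since far more genes were called in the real data.

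The members and gene lists were chosen with earlier results of these data known. Values per sample are given for members called with at least a 2-fold change and for the 2 members with the smallest p in each role group. Related genes are named if called with at least a 2-fold change, and others were named after their values were seen. Same-numbered samples did not deviate together (correlations 0.019, −0.0071 and −0.048), so numbers were not taken as pairs. Alternatives were DESeq2 1.42.0, total-count scaling, other filters, limma 3.58.1 on log2(TPM + 1) and log2(TPM + 0.1), a replicate block and each sample left out.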

Additional observations from a re-analysis of the deposited data

How the results depend on the processing

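Of 686 combinations of a member with an alternative, 590 kept direction and call, 43 lost the call, 15 gained one and 38 changed direction. The calls of 25 members held under all 14 alternatives (5 higher and 20 lower), *LDHA*, *IDH2*, *ALDOC* and *HK3* among them. Their log2 fold changes ranged from −1.29 to −1.10, −1.22 to −0.99, −1.40 to −1.08 and −1.31 to −0.87. DESeq2 and the replicate block left the call of all 49 members in place, and with the replicate block 39 members (9 higher, 30 lower) and 8398 genes in all were called.

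With total counts, the log2 fold change turned positive for *SLC2A3* (0.0825), *HK1* (0.0344), *PDK1* (0.00858), *IDH3B* (0.133), *OGDH* (0.0963), *IDH1* (0.0735) and *MDH1* (0.135). With limma on log2(TPM + 1), with or without a filter, and on log2(TPM + 0.1), it turned for *SLC2A3* (0.116 and 0.122), *HK1* (0.0795 and 0.0805), *LDHB* (0.022 and 0.0221), *PDHB* (0.0121 and 0.0122), *PDK1* (0.122 and 0.128), *IDH3B* (0.18 and 0.181), *OGDH* (0.108 and 0.109), *IDH1* (0.114 and 0.115) and *MDH1* (0.188 and 0.188). Of these, *LDHB* and *PDHB* were called in the counts. On log2(TPM + 1), limma called 11 members higher and 20 lower, and *SLC16A3*, *PFKM*, *PKM*, *PDHA1*, *DLAT*, *IDH3A*, *IDH3G*, *SUCLG1* and *SUCLG2* lost their calls. With samples left out, *IDH3B* ranged from −0.0701 to 0.00799, *SUCLA2* from −0.0133 to 0.217 and *MDH1* from −0.0705 to 0.0332. On log2(TPM + 1), 2 members were lower by at least 2-fold instead of 4, and limma called 2643 genes lower with a pseudocount of 1, 2634 with 0.1 and 2635 without a filter, instead of 4222. TPM is a share of all transcripts with no further scaling. With each sample left out, 35 to 42 members were called (6 to 10 higher, 29 to 32 lower), 4 by at least 2-fold, and 8026 to 8426 genes in all (4010 to 4189 higher, 4004 to 4237 lower). Depth limits *PFKM*, *PFKFB2* and *ENO2* most, which have under 10 CPM in every sample. *HK3* was also low in WNK463 (4.77 to 6.70 CPM), and *PFKFB3* in Control (9.51 to 9.86 CPM).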
